A study of Mus musculus with 12 samples.

Results

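Transcripts of 10 melanocyte lineage genes were followed in sorted CD8 T cells of OT-I mice, across 12 bulk RNA sequencing libraries, 6 of which came from melanomas. The genes, a fixed list, were Mitf, Sox10, Tyr, Tyrp1, Dct, Pmel, Mlana, Slc45a2, Gpnmb and S100b. They were found by gene identifier among 55401 identifiers in the deposited count tables, and all 10 were among the 16426 genes with enough counts to be tested. In the 6 tumour libraries the 10 genes together took between 0.0495% and 0.206% of all gene counts. Dct alone gave between 54.4% and 62.0% of that load. In the unstranded counts all 10 were higher in every tumour library than in any library of naive or effector cells. For Pmel this depended on how reads in exons shared with other genes were counted. The total varied 4.01-fold between tumour libraries, and the proportions among most of the genes varied less.

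OT-I mice carry a transgenic T cell receptor for an ovalbumin peptide, and every library was from OT-I cells. Naive cells were taken straight from the lymph nodes of OT-I mice that bore no tumour, and effector cells had been stimulated with antigen in culture for 5 days. The tumour groups, called exhausted by the labels, were CD44+ OT-I cells recovered by cell sorting from B78ChOVA melanomas of C57Bl6/J hosts, at 4 or 14 days after the cells had been transferred. Each of the 4 groups had 3 libraries, with 11937053 to 17094006 counts in genes per library. The labels gave no age or sex of the mice and did not say whether libraries of a group came from separate animals or cultures, so the p-values measure the spread between these libraries. Summed CPM of 8 T cell genes, among them Cd3e, Cd8a and Trac, lay between 2954 and 4099 in the 6 tumour libraries and between 4293 and 5670 in the others, so the groups did not overlap. Of the 8, 7 were called lower on day 4 and 4 on day 14 than in effector cells (edgeR; 29.2% and 28.4% of tested genes were called lower). Against naive cells 5 were called lower on day 4 (28.8% of tested genes). On day 14, 2 were lower and 1 higher (28.5% and 33.6%), and Cd3e, Cd8a and Trac were not called (edgeR adjusted p = 0.160, 0.0746 and 0.362). Cd8b1 averaged 894 CPM in naive and 1164 in effector cells, 310 on day 4 and 381 on day 14. Whether the lower T cell sum bears on the levels below was not tested. The mCherry and ovalbumin transcripts of the tumour line were not analysed here.

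Melanocytes arise from the neural crest and make melanin inside specialised organelles, the melanosomes. Sox10 and Mitf are transcription factors that maintain the lineage, and Mitf activates many of the pigment genes. Tyr, Tyrp1 and Dct are the related enzymes of melanin synthesis, Pmel builds the fibrils on which melanin is laid down, and Mlana and Slc45a2 are melanosome membrane proteins. Gpnmb and S100b are expressed in melanocytes and also in other cell types, Gpnmb in macrophages and S100b in glia. Melanoma cells usually keep this programme, and several of its proteins are targets of T cells in melanoma.

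Mitf binds short E-box motifs, and the promoters of the 3 enzyme genes are shown because such a motif lies near each of their start sites. RefSeq promoter entries (GRCm38.p6) matched 6 of the 10 genes, in 8 windows of 250 bases before a transcript start, since Mitf has several starts. No entry was matched for Pmel, Mlana, Sox10 and Slc45a2. The 30 bases around each match to CATGTG are given along the strand that holds the motif, with CATGTG in capitals.
Tyr, chr7:87493516-87493545, strand of the gene: gaaaaagttagtCATGTGctttgcagaaga
Tyrp1, chr4:80834155-80834184, strand of the gene: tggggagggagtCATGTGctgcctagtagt
Dct, chr14:118052379-118052408, strand of the gene: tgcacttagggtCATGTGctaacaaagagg
Dct, chr14:118052461-118052490, opposite strand: ctttattgggctCATGTGtcccagccaagc

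The motif began 21 bases before the RefSeq transcript start of Tyr, 46 before that of Tyrp1, and 150 and 232 before that of Dct. For Tyrp1 the gene interval of GENCODE begins further upstream than the RefSeq start, so the motif lies inside that interval. The sites on the strand of the gene shared the run GTCATGTGCT, searched after these sequences had been seen. That run was in 3 of the 8 windows and, counting both strands, in 0.155% of 32817 mouse promoter windows of the same length. The core CATGTG was in the same 3 windows and in 12.3% of all promoters, and TCATGTG, which contains it, in the same 3 windows and in 3.25%. CACGTG was in none of the 8 windows and in 6.02% of all promoters. The SOX core ACAAAG was in 3 windows, those of Tyrp1, Gpnmb and Dct, and in 16.5% of all promoters. The Tyr and Dct windows are given whole, from 250 bases before the start up to the start along the strand of the gene, with CATGTG or its reverse complement in capitals.
Tyr, chr7:87493513-87493762, minus strand: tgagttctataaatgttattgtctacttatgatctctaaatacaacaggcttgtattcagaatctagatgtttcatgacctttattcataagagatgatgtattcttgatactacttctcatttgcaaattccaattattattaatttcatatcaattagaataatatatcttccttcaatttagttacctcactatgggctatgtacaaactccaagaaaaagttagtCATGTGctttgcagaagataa
Dct, chr14:118052247-118052496, minus strand: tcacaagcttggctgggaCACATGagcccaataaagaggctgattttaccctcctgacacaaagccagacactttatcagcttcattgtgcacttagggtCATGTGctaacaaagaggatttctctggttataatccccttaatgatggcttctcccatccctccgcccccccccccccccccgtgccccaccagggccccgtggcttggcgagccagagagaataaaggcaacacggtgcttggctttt

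The lineage transcription factors were present in every tumour library. Levels are given as CPM, the count of a gene scaled to a common library size, with TMM factors (the trimmed mean of M values). Mitf (ENSMUSG00000035158.15, chr6:97807052-98021349, plus strand) stood at 1.26, 0.637 and 0.383 CPM in naive cells and at 0.359, 0.516 and 0.851 in effector cells. In the tumour it stood at 20.8, 23.5 and 14.4 CPM on day 4 and at 28.5, 17.7 and 9.38 on day 14. The lowest tumour value was above the highest of the other 6 libraries. Mitf was higher on day 14 than in effector cells by 4.99 on the log2 scale (SE 0.49; edgeR quasi-likelihood test, Benjamini-Hochberg adjusted p = 7.97e-07). Bulk values such as these cannot tell a few cells rich in a transcript from a low level in many cells, and RNA of melanoma cells cannot be told apart from RNA made in the T cells.

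Sox10 (ENSMUSG00000033006.10, chr15:79154908-79165240, minus strand), the neural crest factor upstream of Mitf, had 2 counts in all in the naive libraries and 0 in the effector libraries. It reached 10.6, 11.2 and 9.49 CPM on day 4 and 19.2, 7.11 and 6.18 CPM on day 14. Against the effector libraries this was at least 134-fold higher on day 4 and at least 135-fold higher on day 14, with 3 counts over the group as the floor. Day 14 replicate 1 held the highest level of both factors and day 14 replicate 3 the lowest.

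The 3 enzymes of melanin synthesis spanned a wide range of levels. Dct (ENSMUSG00000022129.4, chr14:118012790-118052244, minus strand) converts dopachrome and was the most abundant of the 10 genes in each tumour library. It stood at 0.591, 2.15 and 0.612 CPM in naive cells and at 0.575, 0.774 and 0.928 in effector cells. On day 4 it stood at 789, 698 and 479 CPM, and on day 14 at 1214, 492 and 318. The groups did not overlap, and Dct was higher by 9.25 on the log2 scale on day 14 than in naive cells (SE 0.76; edgeR adjusted p = 8.55e-06) and by 9.79 than in effector cells (SE 0.79; edgeR adjusted p = 8.15e-06).

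Tyrp1 (ENSMUSG00000005994.14, chr4:80834123-80851719, plus strand) oxidises a melanin intermediate and stood at 48.4, 56.5 and 54.2 CPM on day 4 and at 107, 44.2 and 18.2 CPM on day 14. Its 2 counts outside the tumour were both in naive replicate 3, and the effector libraries had 0. It was at least 683-fold higher on day 4 and at least 702-fold higher on day 14 than in the effector libraries. Tyr (ENSMUSG00000004651.6, chr7:87424771-87493512, minus strand), the rate-limiting enzyme, had 1 count in naive replicate 2 and 0 in the other 5 libraries outside the tumour. It stood at 17.4, 10.2 and 17.6 CPM on day 4 and at 24.4, 8.52 and 4.12 CPM on day 14, at least 190-fold and at least 153-fold above the effector libraries. Between the lowest and the highest tumour library Tyr and Tyrp1 differed 5.92-fold and 5.87-fold, more than the 3.82-fold of Dct.

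Among the structural and membrane genes of the melanosome, Mlana and Slc45a2 were near 0 outside the tumour. Mlana (ENSMUSG00000024806.4, chr19:29697824-29708634, plus strand) had 3 counts in naive and 3 in effector cells, then 20.6, 20.8 and 16.7 CPM on day 4 and 34.9, 20.9 and 11.3 on day 14. Its ratio to the effector libraries was 282-fold on day 14, with a 95% counting interval of 96.2 to 1369. Slc45a2 (ENSMUSG00000022243.10, chr15:11000721-11029233, plus strand), a transporter of the melanosome membrane, had 2 counts in naive and 1 in effector cells. It stood at 26.99, 31.5 and 20.9 CPM on day 4 and at 50.5, 23.3 and 11.9 on day 14, which was 547-fold (interval 151 to 4518) above the naive libraries on day 14. For both genes the 6 tumour libraries lay apart from the rest.

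Pmel (ENSMUSG00000025359.10, chr10:128704195-128720238, plus strand) was the exception outside the tumour, where it had a steady level. It stood at 29.1, 29.5 and 25.0 CPM in naive cells and at 41.3, 35.5 and 35.6 in effector cells. On day 4 it stood at 96.4, 104 and 74.7 CPM, and on day 14 at 180, 81.3 and 46.7. The lowest tumour value, in day 14 replicate 3, was only slightly above the highest effector value. Pmel was higher on day 14 than in effector cells by 1.45 on the log2 scale (SE 0.42; edgeR adjusted p = 0.0143) and on day 4 by 1.29 (SE 0.42; edgeR adjusted p = 0.0236).

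Pmel's values depend on how reads in shared exons are counted, because 139 bases of its exons are shared with exons of Cdk2 or Dgka. Reads over more than 1 gene are left out of the unstranded counts used here. Dgka, a lipid kinase gene of T cells, averaged 1582 CPM in naive and 2030 in effector cells, 192 on day 4 and 191 on day 14. These libraries do not keep strand: 49.8% to 49.9% of stranded gene counts were on the sense column. When both strand columns were summed, which adds reads in the shared bases, Pmel's count rose by 13.5% over the tumour libraries and by 285% over the others. Its log2 difference was then -0.06 for day 4 against naive cells, 0.09 for day 14 against naive cells, -0.46 for day 4 against effector cells and -0.31 for day 14 against effector cells, none of them called (edgeR adjusted p = 0.894, 0.828, 0.273 and 0.467). The other 9 genes had no reads of this kind. How much of Pmel's level outside the tumour came from its neighbours was not tested. The call on day 4 against effector cells was also lost without effector replicate 2 (edgeR adjusted p = 0.0682), effector replicate 3 (0.0620), the first (0.0530) or the second (0.0544) day 4 library. That on day 14 was lost when the compared groups alone were fitted (edgeR adjusted p = 0.0747).

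Gpnmb and S100b, the genes with the widest expression elsewhere, were at opposite ends of abundance. Gpnmb (ENSMUSG00000029816.10, chr6:49036546-49070929, plus strand), a glycoprotein related to Pmel, stood at 0.517, 1.35 and 0.612 CPM in naive and at 1.65, 5.68 and 3.95 in effector cells. On day 4 it stood at 283, 234 and 190 CPM and on day 14 at 390, 172 and 85.0. It was higher on day 14 than in effector cells by 5.86 on the log2 scale (SE 0.69; edgeR adjusted p = 9.39e-05). S100b (ENSMUSG00000033208.7, chr10:76253853-76261159, plus strand), a calcium-binding protein, had 0 counts in all 6 naive and effector libraries. It stood at 1.76, 2.34 and 4.14 CPM on day 4 and at 5.74, 2.12 and 2.18 on day 14, at least 35.4-fold and at least 41.9-fold above the effector libraries.

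**Figure D1:**
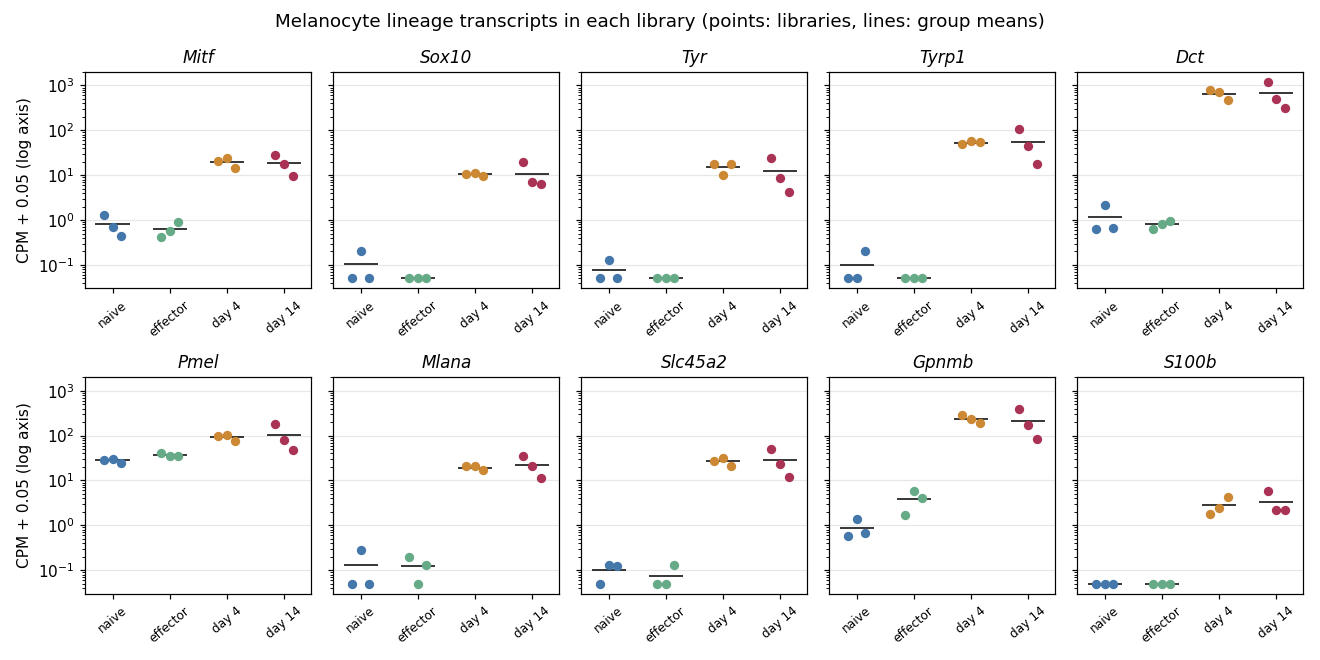
Level of each of the 10 melanocyte lineage genes in the 12 libraries. The vertical axis is CPM plus 0.05 on a log scale, points are libraries and lines are means of 3. In each panel all 6 tumour points lie above the 6 naive and effector points, and Pmel has the narrowest gap.

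Set against all genes, 10 of the 10 were called higher on day 4 than in naive cells, where 33.4% of tested genes were called higher (edgeR, adjusted p under 0.05). The same 10 were called higher on day 14 than in naive cells (33.6% of tested genes), on day 4 than in effector cells (32.7%) and on day 14 than in effector cells (32.6%). Their median fitted log2 difference was 8.23, 8.26, 8.94 and 9.13 in these comparisons, in that order, beside medians of 0.03, 0.04, 0.06 and 0.06 over all tested genes. With the genes at 0 in the comparator set to their lower bound, the medians of the 10 were 7.99, 8.03, 7.32 and 7.17. Libraries did not overlap between tumour and the rest for 10 of 10 genes, against 23.9% of tested genes. These comparisons share control libraries, and Mitf, Tyr, Tyrp1, Mlana, Sox10, S100b and Slc45a2 could pass the count filter only through the tumour libraries, so the counts describe the list.

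No difference between day 4 and day 14 was detected for any of the 10 genes. None was called (0 of 10 by edgeR and 0 by DESeq2, with 0 below an unadjusted edgeR p of 0.05), where 7.17% of tested genes were called higher and 4.91% lower on day 14. The fitted log2 differences ran from -0.29 for Tyr (SE 0.55; edgeR adjusted p = 0.835) to 0.28 for S100b (SE 0.54; edgeR adjusted p = 0.835). For Dct the difference was 0.04 (SE 0.47; edgeR adjusted p = 0.981). The standard errors were between 0.36 and 0.58, so differences of these sizes were not detectable.

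Between effector and naive cells none of the 10 was called by edgeR either (0 also below an unadjusted p of 0.05). Of all tested genes 14.6% were called higher and 10.4% lower, or 2395 and 1703 genes. With total counts in place of TMM scaling those numbers were 1544 and 2508. The largest fitted rise was that of Gpnmb, 2.16 on the log2 scale (SE 1.02; edgeR adjusted p = 0.168), which DESeq2 did call. With the compared groups alone in the fit, Gpnmb and Pmel were called (edgeR adjusted p = 0.0116 and 0.0474).

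The load, the summed level of the 10 genes, differed more within the day 14 group than between the times. It was 1315, 1193 and 881 CPM on day 4 and 2054, 869 and 513 CPM on day 14, against 26.9 to 44.1 CPM in naive and effector cells. The group means were 1130 ± 224 CPM (SD, n = 3) on day 4 and 1145 ± 807 (SD, n = 3) on day 14, a ratio of 1.01. The highest and the lowest load were both on day 14 and differed 4.01-fold, while the day 4 libraries spanned 1.49-fold. As a share of gene counts the load was 0.206% in day 14 replicate 1 (95% Wilson interval 0.203% to 0.208%) and 0.0495% in day 14 replicate 3 (0.0485% to 0.0506%). These intervals cover counting error only, as reads were amplified without molecular identifiers.

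Without day 14 replicate 1 the load ratio of day 14 to day 4 was 0.611, and the range over tumour libraries was 2.57-fold. Without day 14 replicate 3 that range was 2.36-fold. Pmel made up most of the load outside the tumour. With Pmel left out, an alternative added after the values had been seen, the load was 1.84 to 6.97 CPM in naive and effector cells and 466 to 1874 CPM in the tumour. The lowest tumour library was then 66.9-fold above the highest of the others.

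**Figure D2:**
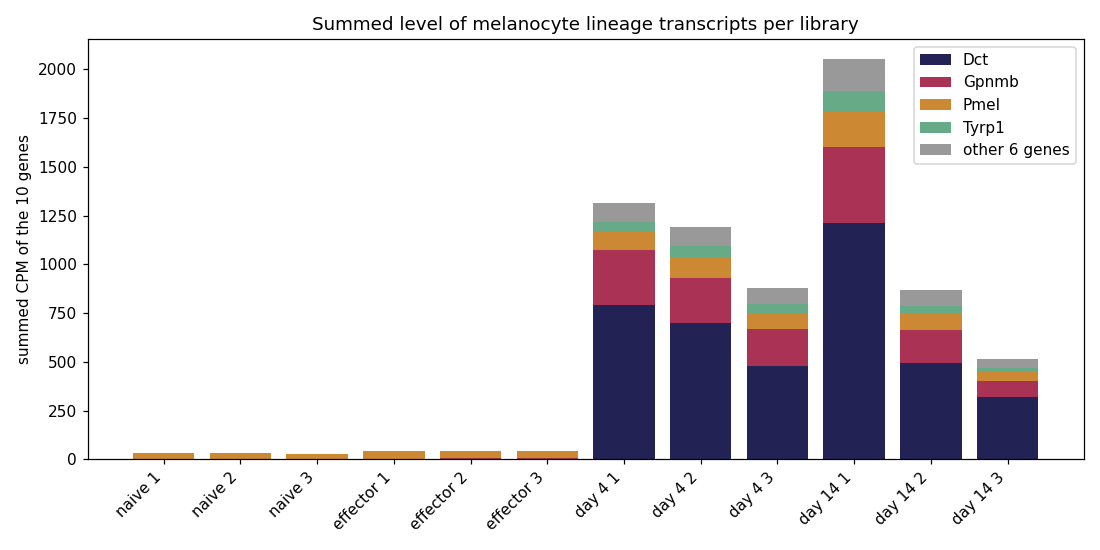
Summed CPM of the 10 genes in each of the 12 libraries, stacked by gene, with Dct, Gpnmb, Pmel and Tyrp1 apart and the other 6 genes joined. Bars start at 0. The 6 tumour libraries run from 513 to 2054 CPM, and Dct is the largest block in each.

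The composition of the load was more alike between tumour libraries than its size. Dct gave 54.4% to 62.0% of the load (median 58.8%), Gpnmb 16.6% to 21.5% (median 19.7%) and Pmel 7.33% to 9.35% (median 8.76%). Tyrp1 followed with 3.54% to 6.15%, Slc45a2 with 2.05% to 2.69%, Mlana with 1.57% to 2.40% and Mitf with 1.39% to 2.04%. The least abundant were Tyr with 0.803% to 1.99%, Sox10 with 0.809% to 1.20% and S100b with 0.134% to 0.470%. Each share rests on 8468 to 31111 counts of the 10 genes per library.

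These shares depend on transcript length. Per kilobase of exon the mean tumour level was 113 CPM for Dct, 42.4 for Pmel, 34.6 for Gpnmb, 19.7 for Mlana and 19.3 for Tyrp1. It was 9.23 CPM per kilobase for Slc45a2, 3.49 for Sox10, 3.07 for Mitf, 2.05 for S100b and 1.93 for Tyr. Over the 6 tumour libraries the range of every gene overlapped that of its neighbour in this order. These ranges include the differences in load between libraries. Within each tumour library Dct was above Pmel, at 206 against 78.6 in day 14 replicate 1 and 53.9 against 20.4 in day 14 replicate 3. Pmel was below Gpnmb in day 4 replicate 1, at 42.0 against 43.5. Dct, whose range ran from 53.9 to 206 CPM per kilobase, was first on either scale, while Tyr moved from the eighth to the last place.

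Ratios to Dct, which do not depend on library size, varied less between tumour libraries than the levels did for most of the genes. The SD over the 6 tumour libraries of the log2 ratio to Dct was 0.15 for Pmel, 0.18 for Slc45a2, 0.19 for Gpnmb, 0.22 for Sox10, 0.23 for Mitf and 0.25 for Mlana. The SD of the log2 levels of the same genes was larger, from 0.53 for Mlana to 0.75 for Gpnmb. Tyrp1 (0.37), Tyr (0.53) and S100b (0.70) were less steady beside Dct. Counting alone would give SDs from 0.03 for Gpnmb and 0.04 for Pmel to 0.12 for Tyr and 0.23 for S100b, so the spread was above counting error for all 9 genes.

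The 3 genes with the widest spread were highest beside Dct in day 4 replicate 3, where Dct's own share of the load was lowest (54.4%). The same 3 genes were also highest beside Pmel in that library. Tyr was at 3.68% of the Dct count there and at its lowest, 1.31%, in day 14 replicate 3. Tyrp1 was at 11.3% of the Dct count in day 4 replicate 3 and at 5.73% in day 14 replicate 3. S100b was at 0.872% in day 4 replicate 3, not far above 0.695% in day 14 replicate 3, and at 0.228% in day 4 replicate 1. Gpnmb ranged less, from 26.8% to 39.6% of Dct, and was again highest in day 4 replicate 3 and lowest in day 14 replicate 3. Beside Pmel, Gpnmb was highest in day 4 replicate 1 (log2 ratio 1.56), above day 4 replicate 3 (1.34). Sox10 was also highest beside Dct in day 4 replicate 3, at 1.99%.

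**Figure D3:**
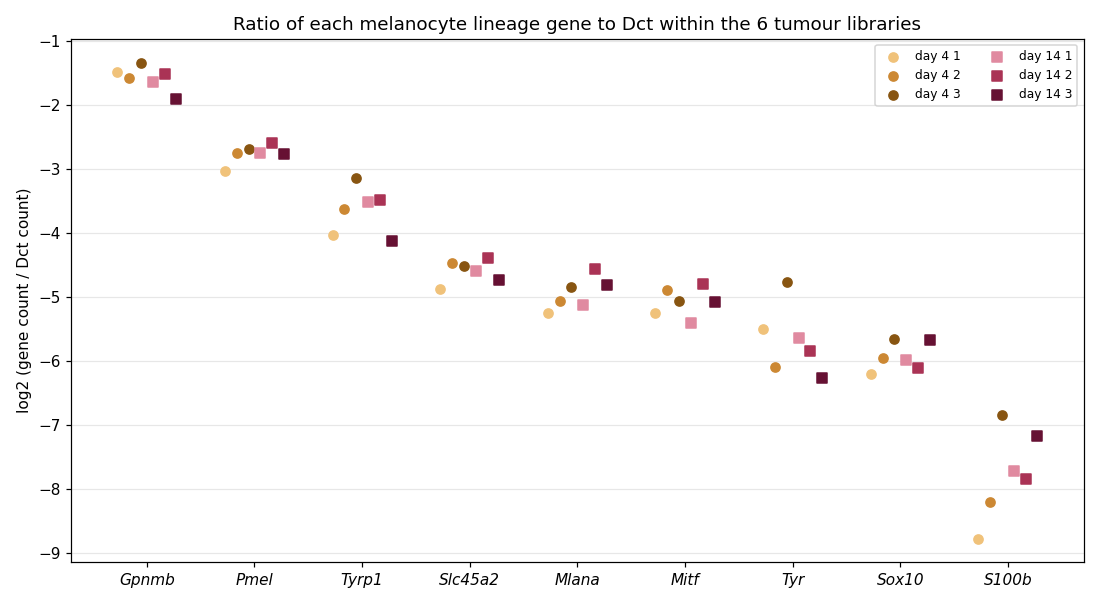
Log2 ratio of the counts of 9 genes to those of Dct in the 6 tumour libraries, with circles for day 4 and squares for day 14. Gpnmb and Pmel form tight groups, whereas Tyr, Tyrp1 and S100b spread widely and are highest in day 4 replicate 3.

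Ratios on day 4 and day 14 were compared by an exact two-sided permutation test, which with 3 libraries against 3 cannot give a p below 0.1 and so could call no difference. Of 9 log2 ratios to Pmel the largest differences, day 14 minus day 4, were -0.57 for Tyr (SD 0.31 on day 14 and 0.65 on day 4) and -0.33 for Gpnmb (SD 0.14 and 0.20). The adjusted p of the exact permutation test was 0.7 for each of the 9. With Dct as the reference, added after the values had been seen, Gpnmb differed by -0.22 and Pmel by 0.11, and all 9 adjusted p-values of the exact permutation test were 1.

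Outside the tumour the same genes stood in other proportions. Pmel was at 13.7 to 49.3 times the Dct count in naive and at 38.3 to 71.9 times in effector libraries, against 0.122 to 0.165 times in the tumour. Gpnmb was at 0.630 to 1 times the Dct count in naive, 2.88 to 7.33 times in effector and 0.268 to 0.396 times in tumour libraries. Mitf was at 0.296 to 2.13 times Dct in naive and 0.625 to 0.917 times in effector libraries, against 0.0235 to 0.0360 times in the tumour. The Dct counts behind the ratios outside the tumour are few, 43 in the naive and 29 in the effector libraries together. With the mean Pmel level of those libraries, 32.7 CPM, taken off, Pmel would be at 4.43% to 12.1% of Dct in the tumour, a wider span than before.

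Most of the other pigment cell genes tested were also higher in the tumour. Of a list of 18 further pigment and melanocyte genes, 16 could be tested, and 14 of 16 were called higher on day 4 and on day 14 than in naive cells, 14 on day 4 and 13 on day 14 than in effector cells, with 0 lower (edgeR). Of all tested genes 33.4%, 33.6%, 32.7% and 32.6% were called higher in these comparisons. Mlph, Tspan10, Gpr143, Fabp7 and Ednrb had 0 counts outside the tumour, and Bace2 and Cited1 were at 0.239 CPM or less there. At least these genes could pass the count filter only through the tumour libraries, so the counts describe the list. On day 14 against day 4, 0 of the 16 were called, where 7.17% of tested genes were called higher and 4.91% lower. Mlph, which links melanosomes to the motor Myo5a, had 0 counts outside the tumour and stood at 15.4, 17.7 and 13.2 CPM on day 4 and 26.7, 11.6 and 6.60 on day 14. Mc1r, the receptor for melanocyte-stimulating hormone, stood between 1.76 and 4.62 CPM in the tumour and at 0.153 CPM or less elsewhere. Tspan10 stood between 2.18 and 3.96 CPM, with 0 counts outside the tumour.

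Several genes of that list did not keep to the tumour. Kit, the stem cell factor receptor, stood at 11.7 to 34.4 CPM in effector cells and 17.6 to 24.8 in the tumour, and the day 14 difference from effector cells was 0.16 on the log2 scale (SE 0.35; edgeR adjusted p = 0.710). Trpm1, a channel gene under Mitf control, stood at 6.85 to 10.3 CPM in naive cells, 0.0860 to 0.791 in effector cells and 14.5 to 32.5 in the tumour. Slc24a5, an ion exchanger of pigment cells, stood at 1.04 to 2.59 CPM in all 12 libraries. Tfap2a was called on day 4 but not on day 14 against effector cells (1.90 on the log2 scale, SE 0.86; edgeR adjusted p = 0.0677). Oca2 and Rab38, also pigment genes, had too few counts to be tested, Oca2 reaching 0.294 CPM and Rab38 0.132 CPM in the tumour.

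Machinery of melanosome traffic that many cell types use was called in both directions. Of 14 such genes, 5 were called higher and 6 lower on day 14 than in effector cells (edgeR; 32.6% of tested genes were called higher and 28.4% lower). On day 4 against effector cells 5 were higher and 7 lower (32.7% and 29.2%). Against naive cells 6 were higher and 5 lower on day 4 (33.4% and 28.8%), and 7 and 6 on day 14 (33.6% and 28.5%). Cd63, a tetraspanin of late endosomes and melanosomes, stood at 20.8 to 65.2 CPM in the tumour and at 0.319 CPM or less elsewhere. Myo5a was higher on day 14 than in effector cells by 2.22 on the log2 scale (SE 0.12; edgeR adjusted p = 2.45e-10). Rab27a, which also serves granule transport in T cells, was higher by 1.81 (SE 0.12; edgeR adjusted p = 3.03e-09). Hps1 and Vps33a, of organelle biogenesis, fell by 1.38 and 1.35 (edgeR adjusted p = 9.33e-07 and 1.11e-07). Between the times, 4 of the 14 were called higher on day 14 and 1 lower, beside 7.17% and 4.91% of tested genes. Rab27a was higher on day 14 by 0.86, Lyst by 0.55, Myo5a by 0.50 and Hps5 by 0.32 (edgeR adjusted p = 1.58e-04, 0.00925, 0.00823 and 0.0382). Ap3b1 was lower, at -0.60 (edgeR adjusted p = 0.00765). Of Mitf's relatives, Tfe3 and Tfeb averaged 24.4 and 16.6 CPM in the tumour, close to Mitf at 19.0, but stood at 10.3 CPM or more in naive and effector cells too, and Tfec reached 0.545 CPM at most.

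Markers of other cell types in the tumour were followed because Gpnmb, S100b and Mitf are not unique to melanocytes. The summed level of 15 macrophage markers was 14.6 to 29.5 CPM in naive, 6.19 to 10.1 in effector, 65.5 to 138 on day 4 and 68.6 to 123 on day 14. It was highest in day 4 replicate 3, whose melanocyte load was the lowest of its group. In that library Dct's share of the load was lowest (54.4%), and Tyr, Tyrp1, S100b, Sox10 and Gpnmb were highest beside Dct. Beside Pmel, Gpnmb was highest in day 4 replicate 1. Whether these patterns are linked was not tested. Of the 15 markers, 13 were tested, and 11 were called higher on day 14 than in effector cells (edgeR; 32.6% of tested genes). Against naive cells 5 were called higher on day 4 and 4 on day 14, beside 33.4% and 33.6% of tested genes. In effector against naive cells 8 of the 13 were called lower, beside 10.4% of tested genes. Apoe and Cd68 made up most of the sum, at 31.1 to 65.2 and 15.8 to 25.3 CPM in the tumour, with C1qb between 0.781 and 6.41 CPM and Csf1r between 0.706 and 4.61 CPM in the tumour. Gpnmb averaged 226 CPM in the tumour, Apoe 44.8, Cd68 19.3 and Lyz2 9.05. These averages do not bound the part of macrophage RNA in the Gpnmb level, which was not tested.

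Fibroblast markers (7 genes) summed to 1.39, 24.4 and 2.74 CPM on day 4 and to 8.85, 18.7 and 9.26 on day 14, and so were high in the replicates numbered 2. Of the Schwann cell list, which shares the neural crest origin, 4 genes were tested. Cdh19, Ncam1 and Pmp22 were called higher on day 14 than in effector cells (edgeR; 32.6% of tested genes were called higher). They stood at 2.70 to 10.4, 2.18 to 8.05 and 1.03 to 4.62 CPM in the tumour. Mbp, a myelin gene that T cells also express and the most abundant of that list, was lower, at -1.12 on the log2 scale (SE 0.10; edgeR adjusted p = 1.27e-07). The keratin genes Krt5, Krt14 and Krt1 had 0 counts in all 6 tumour libraries. Over the tumour libraries the sum of the T cell genes varied 1.39-fold, the melanocyte load 4.01-fold, the macrophage sum 2.11-fold and the fibroblast sum 17.5-fold. Single macrophage markers varied more than their sum, Lyz2 10.8-fold, Mrc1 11.5-fold, C1qb 8.21-fold and Csf1r 6.53-fold.

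**Figure D4:**
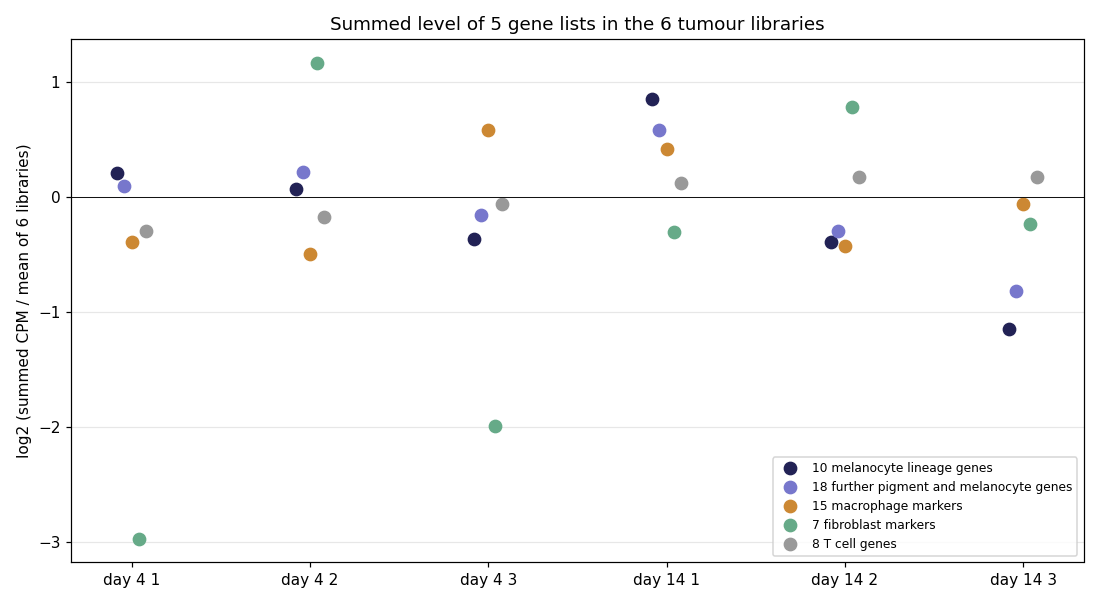
Log2 of the summed CPM of 5 gene lists in each tumour library, relative to the mean of the 6 libraries. The 10 melanocyte lineage genes and the 18 further pigment genes move side by side, while the macrophage and fibroblast markers peak in other libraries.

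The genes most like the pigment genes in the tumour were sought by a fixed rule. Protein-coding genes under 1 CPM in each naive and effector library and at least 5 CPM on average in the tumour, 242 in all, were ranked by the SD over the 6 tumour libraries of the log2 ratio to the sum of Pmel, Tyr, Tyrp1, Dct and Mlana. The first 10 were Gjb2 (0.13), Dock3 (0.14), Mlph (0.15), Car6 (0.15), Eps8 (0.16), Rhox5 (0.16), Slc6a17 (0.17), Arhgap32 (0.18), Syt9 (0.18) and Bhlhe41 (0.20). The median SD over the 242 genes was 0.55, and the next gene after the tenth was at 0.20 as well. Car6 ran at 86.3, 86.6 and 63.3 CPM on day 4 and at 120, 64.2 and 33.1 CPM on day 14. Rhox5, a gene of the X chromosome, ran at 9.98, 9.07 and 6.21 CPM on day 4 and at 13.3, 7.70 and 4.36 on day 14. Mlph was the gene on both this list and the list of pigment genes. Points share libraries and scaling, so this likeness is a description. By the same measure the SD was 0.25 for Cd63, 0.48 for Apoe, 1.41 for C1qb, 1.53 for Csf1r and 1.60 for Lyz2.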

How the data were processed

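Per the labels' protocols, cells were sorted into lysis buffer, mRNA was taken on beads, and cDNA was amplified before tagmentation. The values the authors deposited are read counts per gene, unstranded and for each strand. Per the submitters' processing notes, fastp 0.19.6 and STAR 2.6.1b were used with build GRCm38; how reads were counted, and with which annotation release, is not given in the sources used here. Of 55401 gene identifiers, 55141 matched GENCODE M21 without the version number, and 54349 with it. Reads over more than 1 gene, counted as ambiguous, were 3.22% to 3.81% per library and entered no gene.

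The unstranded counts were used, with TMM scaling. Genes were filtered with filterByExpr and tested with edgeR 4.0.16 in R 4.3.3 (quasi-likelihood, 12 libraries in 1 fit, 8 residual degrees of freedom), with Benjamini-Hochberg adjustment over 16426 genes and a call at 0.05. Coordinates are GRCm38. Load, shares and ratios came from the same counts, with 0.5 added in log2 ratios. Against a group at 0, folds were taken against 3 counts in the whole group. Ratios were compared by exact permutation tests. Genes named outside the 10 were, per list, up to 3 called genes with the largest changes each way on day 14 against effector cells or day 4, up to 3 at 100 CPM or more in the tumour, and lone exceptions chosen after their values were seen. The fits were tested on simulated data. Alternatives were DESeq2 1.42.0, DESeq2 size factors, total counts, no filter, the compared groups alone, a replicate block, summed strand columns, lengths and each library left out. The genes and lists were chosen with earlier results of these data known. No replicate pair was alike within sampling noise (chi-square per degree of freedom 9.48 to 25.9).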

Additional observations from a re-analysis of the deposited data

How the results depend on the processing

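The calls of all 10 genes against naive cells (10 of 10 called higher) held under every alternative except Pmel with summed strand columns. Of the values recomputed under an alternative, 1192 kept their direction and side of the threshold, 26 reversed, 16 moved beyond the spread, 6 fell below the threshold and 2 rose past it. Leaving out 1 library gave 9 to 10 genes called on day 4 against effector cells and 10 in the other comparisons with the tumour. With summed strand columns, Pmel was at -0.059 on day 4 and 0.09 on day 14 against naive cells, and at -0.46 and -0.31 against effector cells, on the log2 scale. Between effector and naive cells, 2 genes were called with the compared groups alone and 1 by DESeq2. Total counts as scaling moved the median of all genes there from 0.01 to -0.10. The load ratio of day 14 to day 4 ran from 0.611 to 1.29 with 1 library left out, and the range over tumour libraries from 2.36 to 4.01.

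With each library left out in turn, the log2 difference of day 14 from day 4 ran from -0.54 to 0.22 for Mitf, -0.53 to 0.49 for Pmel, -1.26 to 0.11 for Tyr, -0.78 to 0.49 for Tyrp1 and -0.71 to 0.36 for Dct. It ran from -0.28 to 0.51 for Mlana, -0.66 to 0.31 for Sox10, -0.37 to 0.68 for S100b, -0.88 to 0.23 for Gpnmb and -0.60 to 0.46 for Slc45a2. None was called at either end. The direction turned for 7 genes without day 14 replicate 1 (Pmel, Tyrp1, Dct, Mlana, Sox10, S100b and Slc45a2) and for Mitf, Tyr and Gpnmb without day 14 replicate 3.

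No pairing by replicate number was detected, which does not show that the libraries were unpaired. Deviations from group means correlated between -0.09 and 0.10 over 18 same-numbered pairs. Over 36 pairs with different numbers they correlated between -0.08 and 0.09. With the replicate number as a block, 10 of the 10 genes were still called in each comparison of tumour with other libraries and 0 in the rest. Under this block, the day 14 difference from day 4 was -0.24 for Tyrp1, -0.12 for Dct, -0.12 for Sox10 and -0.092 for Slc45a2.

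Shares depend on length and on what is summed. Per kilobase of exon, the median share of the load was 45.6% for Dct, 17.5% for Pmel, 13.6% for Gpnmb, 7.81% for Tyrp1, 7.81% for Mlana, 3.67% for Slc45a2, 1.41% for Sox10, 1.27% for Mitf and 0.793% for S100b. With only the 5 pigment genes summed, it was 78.1% for Dct, 11.7% for Pmel, 6.59% for Tyrp1 and 2.47% for Mlana. With summed strand columns it was 9.75% for Pmel. With Dct in place of Pmel as the reference, the log2 ratio difference between the times was 0.018 for Sox10 and 0.047 for Slc45a2. With 1 library left out, that to Pmel ran from -0.25 to 0.051 for Sox10 and from -0.059 to 0.73 for S100b. Low counts limit S100b, Tyr and Sox10, and with 3 libraries per group no ratio test could fall under 0.1. The cause of these shifts was not tested beyond what each setting changes.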

Other observations

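Other cell types were also followed by their markers. The dendritic cell list (6 genes) summed to 28.6 to 49.1 CPM in the tumour libraries and to 2.71 to 7.05 CPM in naive and effector cells. Zbtb46 and Xcr1 made up most of the sum in the tumour, averaging 28.0 and 7.94 CPM. Flt3, Clec9a, Cd209a and Siglech averaged 0.769, 0.307, 0.302 and 0.154 CPM there. Of the 3 tested genes of the list, Zbtb46 and Xcr1 were called higher on day 14 than in effector cells, beside 32.6% of tested genes. They were higher by 2.92 and 2.59 on the log2 scale (edgeR adjusted p = 5.49e-07 and 1.70e-04). Flt3 was not called (edgeR adjusted p = 0.0756). Xcr1 was also higher in effector than in naive cells, by 2.44 (edgeR adjusted p = 0.00854). The B cell list (5 genes) went the other way, from 18.1 to 21.3 CPM in naive cells to 1.53 to 6.73 CPM in the tumour, where Cd79a was lower on day 14 than in effector cells, at -4.03 (edgeR adjusted p = 3.93e-06). The endothelial list (6 genes) summed to 43.9 to 87.9 CPM in the tumour and 177 to 198 CPM outside it. Nearly all of that sum was Pecam1, which T cells also express, at 41.2 to 80.8 CPM in the tumour. Of the 2 genes of that list tested, Pecam1 was lower on day 14 than in effector cells, at -1.90 on the log2 scale (edgeR adjusted p = 1.02e-09). Vwf, a marker of endothelium, was higher by 6.77 (SE 1.12; edgeR adjusted p = 9.22e-05) and averaged 4.45 CPM in the tumour. Cdh5, Kdr, Emcn and Tek had too few counts to be tested, averaging 0.465, 0.800, 0.235 and 0.0763 CPM there. The erythroid list (4 genes) ranged from 1.56 to 12.7 CPM in the tumour and from 1.89 to 22.5 CPM outside it. The dendritic cell sum, like the melanocyte load, was lowest in day 14 replicate 3, but it was highest in day 4 replicate 1.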
